A study of Mus musculus with 48 samples.

Results

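This account follows 10 mouse genes of apolipoproteins and lipid efflux, out of 48709 genes counted in each library, through the brains of mice with and without the actin nucleator gene Fmn2 and of mice with amyloid. The 10 genes were chosen by symbol: Apoe, Apod, Abca1, Abcg1, Lcat, Lpl, Ch25h, Soat1, Fabp5 and Lrp1. The RNA of 46 male C57BL/6J mice in 8 groups was sequenced in 48 libraries, 2 mice having been sequenced as 2 runs that were summed. The dentate gyrus (DG) of wild-type mice and of mice labelled as FMN2 knock out, here Fmn2+/+ and Fmn2-/-, was taken at 3 months (5 and 5 mice) and at 8 months (3 and 5 mice). A cross with an amyloid line gave 7 mice of 3 months labelled FMN2-/-_APP and 9 labelled FMN2 +/+ APP, so that all 16 are amyloid mice by their labels. The amyloid line of the study is APPPS1-21, in which a neuronal Thy1 promoter drives mutant human amyloid precursor protein and presenilin. A further experiment compared 6 mice labelled APP with 6 wild types, all labelled as 4 months old.

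Cholesterol in the brain is made locally, because plasma lipoproteins do not cross the blood-brain barrier. Astrocytes and, after injury, microglia load cholesterol and phospholipid onto apolipoprotein E through the export pumps ABCA1 and ABCG1, and neurons take the particles up through receptors such as LRP1. Microglia that gather at amyloid plaques raise many genes of lipid handling, among them Apoe and Lpl.

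Several facts about the libraries bear on what follows. Between 6818809 and 43921030 reads per mouse fell on genes, and of the 8 libraries of 8 months 7 held fewer reads than any other while 1 Fmn2+/+ library was the deepest of all. Fmn2 itself stood at 93.2 to 109 CPM (reads on the gene scaled to a common library size) in 3-month Fmn2+/+ mice and at 22.2 to 27.4 CPM in Fmn2-/- mice of that age. In the cross Fmn2 went against the labels, with 83.3 to 101.8 CPM in mice labelled FMN2-/-_APP and 18.9 to 23.4 CPM in mice labelled FMN2 +/+ APP, so these mice are called by their labels throughout and no direction for loss of Fmn2 is drawn from them. The libraries of the 4-month experiment are labelled dentate gyrus and 4 months, but their titles name PFC and hold 8mo, so that their age is given here as labelled. Summed markers of dentate granule neurons (Prox1, Dsp, C1ql2, Calb1) were at 119 to 178 CPM there against 579 to 1085 CPM in all other mice, and markers of cortical projection neurons were at 432 to 494 CPM against 75.7 to 215 CPM. Markers of choroid plexus exceeded 1000 CPM in 3 DG mice, reaching 9166 CPM in a cross mouse labelled FMN2 +/+ APP.

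All 10 genes are protein-coding. The positions given here are those of GENCODE M21 on mm10, the build to which the authors aligned. The apolipoproteins are Apoe (ENSMUSG00000002985, chromosome 7, 19696109 to 19699188) and Apod (ENSMUSG00000022548, chromosome 16, 31296192 to 31314808), a lipocalin carried on lipoproteins that binds small lipids. The efflux pumps are Abca1 (ENSMUSG00000015243, chromosome 4, 53030787 to 53159895) and Abcg1 (ENSMUSG00000024030, chromosome 17, 31057675 to 31117988). The secreted enzymes are Lcat (ENSMUSG00000035237, chromosome 8, 105939551 to 105943382), which esterifies cholesterol on lipoproteins, and Lpl (ENSMUSG00000015568, chromosome 8, 68880491 to 68907448), the lipase that releases fatty acids from lipoprotein triglyceride. The cellular sterol enzymes are Ch25h (ENSMUSG00000050370, chromosome 19, 34473778 to 34475164), which makes 25-hydroxycholesterol, and Soat1 (ENSMUSG00000026600, chromosome 1, 156424525 to 156474331), which esterifies cholesterol for storage. Fabp5 (ENSMUSG00000027533, chromosome 3, 10012548 to 10016607) carries fatty acids within cells, and Lrp1 (ENSMUSG00000040249, chromosome 10, 127538161 to 127621148) is a large endocytic receptor for apolipoprotein E. Ch25h shares 159 exon bases with Gm26902 on the opposite strand, and the library kit does not keep strand, so reads there cannot be told apart.

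Promoters are shown for Apoe and Ch25h, which rose in the amyloid mice of the 4-month experiment, and for Abca1, the pump that loads Apoe with lipid. Each is the stretch of 250 bases before the transcription start given by RefSeq on GRCm38.p6, and all are on the minus strand: chr7:19699189-19699438 for the upstream start of Apoe, chr19:34475149-34475398 for Ch25h and chr4:53159896-53160145 for Abca1. RefSeq windows matched 7 of the 10 genes.
Apoe: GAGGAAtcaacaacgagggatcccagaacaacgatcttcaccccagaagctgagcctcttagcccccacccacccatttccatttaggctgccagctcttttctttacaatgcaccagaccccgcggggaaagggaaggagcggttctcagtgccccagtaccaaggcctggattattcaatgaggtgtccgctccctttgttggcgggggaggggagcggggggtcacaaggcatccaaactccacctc
Ch25h: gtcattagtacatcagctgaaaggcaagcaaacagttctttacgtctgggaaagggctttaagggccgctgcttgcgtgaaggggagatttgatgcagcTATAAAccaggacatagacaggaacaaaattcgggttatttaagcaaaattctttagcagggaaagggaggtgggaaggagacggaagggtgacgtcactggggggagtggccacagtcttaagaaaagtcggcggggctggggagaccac
Abca1: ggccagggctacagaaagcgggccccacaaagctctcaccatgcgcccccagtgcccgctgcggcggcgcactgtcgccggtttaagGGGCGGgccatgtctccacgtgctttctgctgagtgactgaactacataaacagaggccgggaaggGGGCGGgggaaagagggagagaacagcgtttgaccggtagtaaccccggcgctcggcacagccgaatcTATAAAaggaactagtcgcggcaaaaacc
Capitals mark matches on either strand to 5 motifs that were searched: the DR4 repeat bound by the sterol receptor LXR with its partner RXR, the receptor half-site AGGTCA, the GC box GGGCGG, the TATA box TATAAA and the purine-rich ETS site GAGGAA. A match to the repeat can hold a match to the half-site. The repeat was found in 0.0791% of the 32851 windows of this length, the half-site in 14.02%, the GC box in 32.7%, the TATA box in 12.4% and the ETS site in 23.3%. The Ch25h window held 1 TATA box 146 to 151 bases before the start, the Abca1 window held 2 GC boxes and a TATA box 24 to 29 bases before the start, and the Apoe window held 1 ETS site at its far end. None of the 3 windows held an exact match to the repeat or the half-site. Sites that differ from the searched letters were not counted, so this search cannot show that an LXR site is absent. The Abca1 window holds a stretch on the opposite strand that differs from the searched repeat only at its first base.

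The levels of the 10 genes covered more than 3 orders of magnitude. Compared per kilobase of exon in 3-month Fmn2+/+ DG, Apoe stood first at 647 ± 57.9 CPM per kb (SD, n = 5), followed by Apod at 45.1 ± 12.2 (SD, n = 5) and Lcat at 21.1 ± 1.84 (SD, n = 5). Lpl followed at 17.0 ± 1.56 CPM per kb (SD, n = 5) and Lrp1 at 15.9 ± 0.680 (SD, n = 5), which do not differ beyond their spread. Abcg1 at 7.74 ± 0.444 CPM per kb and Fabp5 at 7.58 ± 0.163 (SD, n = 5 each) did not differ beyond their spread either, nor did Abca1 at 4.03 ± 0.389 and Soat1 at 3.93 ± 0.167 (SD, n = 5 each). Ch25h was last at 0.157 CPM per kb, with 3 to 11 reads per mouse. In the wild types of the 4-month experiment Apoe was again first, at 320 CPM per kb, but Lrp1 was second at 32.9 and Lpl was ninth at 2.33.

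**Figure D1:**
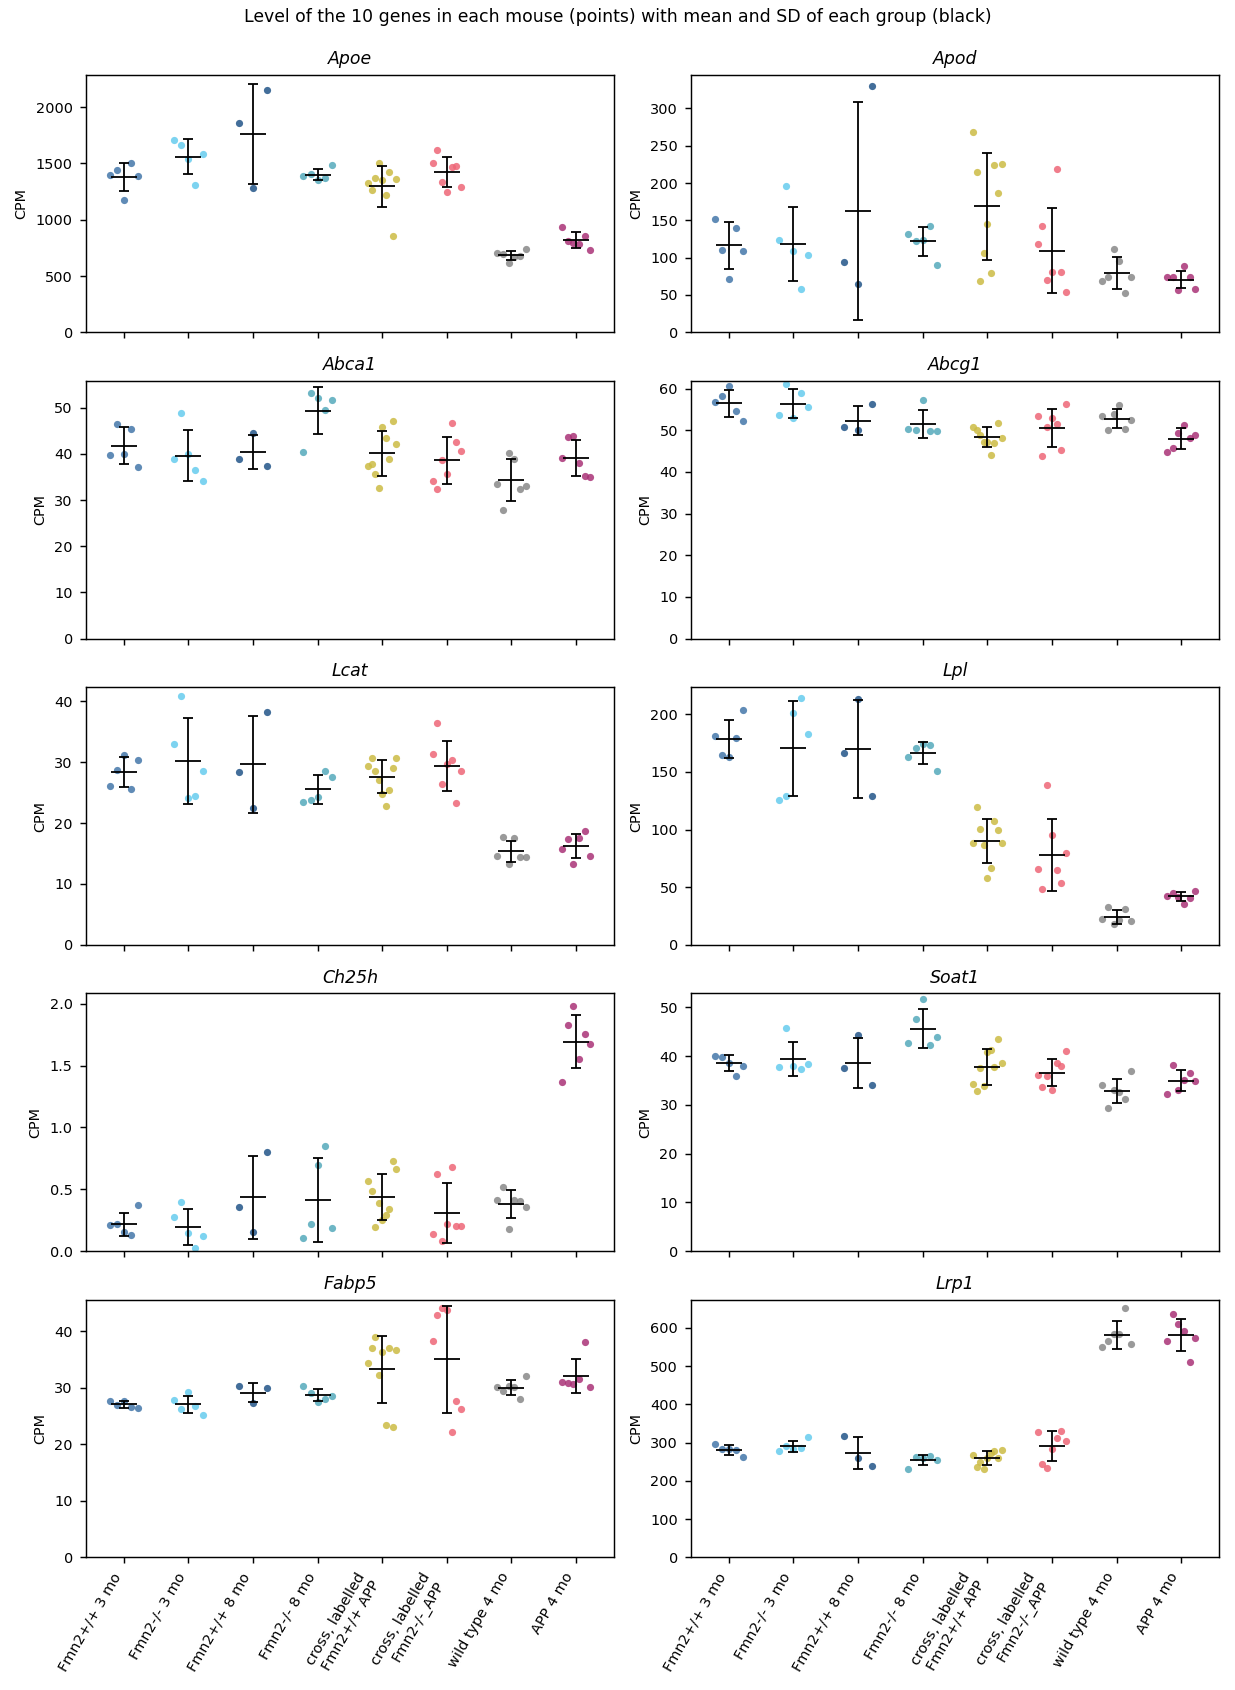
Level of each gene in CPM (linear axes from 0) in every mouse of the 8 groups, with the mean and SD of each group in black. Lpl lies at 125 to 214 CPM in the Fmn2 colony, at 48.1 to 139 CPM in the cross and at 18.5 to 46.5 CPM in the 4-month experiment, and Ch25h is above 1 CPM in the 6 APP mice of 4 months and in no other mouse.

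The 4-month experiment asked how amyloid changes gene expression relative to wild type. Of the 10 genes, 3 rose in APP mice and none fell: Ch25h, Lpl and Apoe. Of all 16733 genes tested, 3.81% were called at an adjusted p under 0.05, and that threshold is meant wherever a gene is said to have risen or fallen. The median log2 fold change of the 10 genes was 0.10, beside -0.00041 for all genes tested.

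Ch25h had the largest change of the 10. Its level was 0.182 CPM in the lowest wild type, 0.408 at the median and 0.523 in the highest, against 1.37, 1.72 and 1.99 CPM in APP mice. The groups did not overlap, and the reads behind them were 3 to 13 per wild type and 34 to 55 per APP mouse. The log2 fold change was 2.11 (standard error 0.19, edgeR adjusted p = 9.59e-07), a 4.33-fold rise. Gm26902, the gene on the opposite strand, was at 1.09 to 2.17 CPM in wild types and 1.41 to 1.87 CPM in APP mice, ranges that overlap.

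Lpl was at 18.5 CPM in the lowest wild type, 21.8 at the median and 33.0 in the highest, against 35.2, 42.2 and 46.5 CPM in APP mice. Every APP mouse thus lay above every wild type. The log2 fold change was 0.79 (standard error 0.12, edgeR adjusted p = 3.27e-04), or 1.73-fold.

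Apoe, the most abundant of the 10, was at 614 CPM in the lowest wild type, 686 at the median and 740 in the highest, against 728, 806 and 939 CPM in APP mice. The groups met at their edges, with 1 APP mouse below the highest wild type. The rise was 1.21-fold (log2 fold change 0.27, standard error 0.057, edgeR adjusted p = 0.00783), and the call is lost where a log2 fold change of at least 0.5 is required.

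The other 7 genes did not pass the test. Abca1 was at 39.2 ± 3.87 CPM in APP mice and 34.3 ± 4.58 CPM in wild types (SD, n = 6 each), a log2 fold change of 0.20 (95% interval 0.021 to 0.39, edgeR adjusted p = 0.278). Abcg1, the other pump, had a log2 fold change of -0.12 (interval -0.22 to -0.028, edgeR adjusted p = 0.184). The intervals of Soat1 (-0.022 to 0.22), Fabp5 (-0.022 to 0.24), Lcat (-0.10 to 0.28) and Lrp1 (-0.10 to 0.12) all included 0, as did the wider one of Apod (-0.46 to 0.15).

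In the same libraries the 5 microglial markers (Cx3cr1, P2ry12, Tmem119, Csf1r, C1qa) all rose, with a summed level of 356 to 452 CPM in APP mice against 233 to 251 CPM in wild types. All 6 markers of plaque-associated microglia (Cst7, Itgax, Clec7a, Trem2, Tyrobp, Cd68) rose too, from 30.5 to 37.4 CPM in sum to 166 to 227 CPM. Of the 6 astrocyte markers 2 rose, with sums of 3379 to 4273 CPM in APP mice and 3474 to 4231 CPM in wild types. The part of these cells in the changes of Ch25h, Lpl and Apoe was not tested, and in whole tissue more cells of a type and more RNA per cell cannot be told apart. All APP mice were sequenced on lane 7 and all wild types on lane 5, so lane and genotype cannot be told apart. Oligodendrocyte markers were at 1359 to 2080 CPM in APP mice and at 2208 to 6205 CPM in wild types. Without the 2 wild types above 3000 CPM the log2 fold changes were 1.99 for Ch25h, 0.67 for Lpl and 0.24 for Apoe, and Abca1 passed the test with 0.32 (edgeR adjusted p = 0.0219).

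Of 38 further genes of lipid transport, grouped by role, 31 were tested here and 2 rose, Npc2 and Fabp7, beside 3.81% of all genes called. Npc2, which hands cholesterol over inside lysosomes, was at 70.5 CPM in APP mice and 44.3 CPM in wild types (log2 fold change 0.68, standard error 0.054, edgeR adjusted p = 1.41e-07), without overlap. Fabp7, the fatty acid carrier of astrocytes and radial glia, rose by 0.46 on the log2 scale (edgeR adjusted p = 0.0329). None of the 6 further genes of LXR, its partners and targets passed the test. Neither did any of the 4 further export pumps and acceptor receptors or the 3 further oxysterol enzymes. These lists leave out Ch25h, Lpl, Apoe, Abca1 and Abcg1. Of those, Ch25h, Lpl and Apoe rose, and the pumps Abca1 and Abcg1 did not pass with all mice in the fit. The lists thus do not describe LXR targets, pumps or oxysterol enzymes as a whole. The median log2 fold change of the 31 genes was -0.0048.

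**Figure D2:**
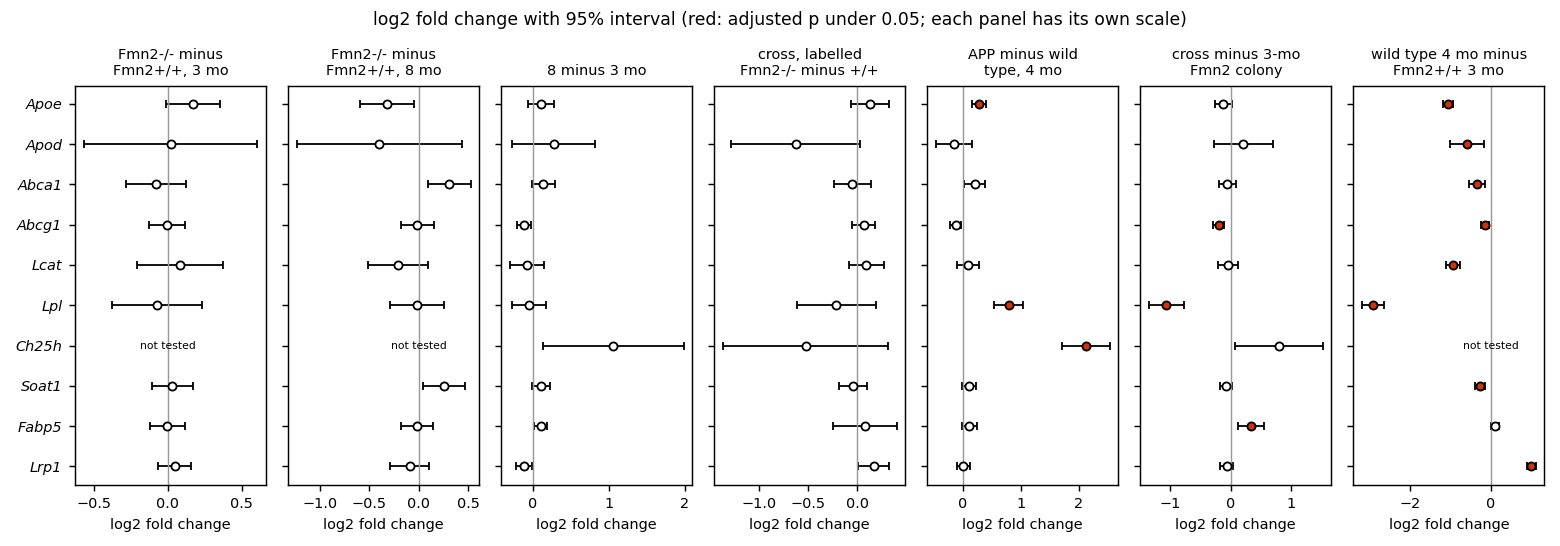
log2 fold change of each gene with its 95% interval in 7 comparisons (horizontal axes, each with its own scale), from edgeR fits of the mice compared. Filled red points passed an adjusted p under 0.05: none in the 4 panels on Fmn2, age and the cross labels. In APP against wild type 3 passed, beside 3.81% of all genes tested. In the cross against the 3-month Fmn2 colony 3 passed, beside 49.4%, and in the last panel 8 passed, beside 74.7%.

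The amyloid mice of the cross gave other values in the DG. None of the 48 libraries is labelled as an amyloid-free mouse of the cross. Both cross groups together (16 mice) were therefore set against both 3-month groups of the Fmn2 colony (10 mice), each group with equal weight. Amyloid and experiment cannot be told apart in this comparison. Lpl and Abcg1 were lower in the cross and Fabp5 was higher, and the other 7 genes did not pass the test. With lane in the fit Soat1 passed too (-0.11, edgeR adjusted p = 0.0412). Of the 3 calls only that of Lpl remained where a log2 fold change of at least 0.5 was required, beside 16.5% of all genes. Of 17599 genes tested, 49.4% were called in this comparison, so that 3 of 10 genes is below the background share.

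Lpl was at 125 CPM in the lowest of the 10 colony mice, 180.2 at the median and 214 in the highest, and at 48.1, 87.2 and 139 CPM in the 16 cross mice. Only 1 cross mouse, the highest, lay above the 2 lowest colony mice, which were both Fmn2-/-. The log2 fold change was -1.06 (standard error 0.14, edgeR adjusted p = 6.93e-07), and it was -1.05 with lane in the fit and -0.96 without the 3 mice rich in choroid plexus markers. On lane 5 alone the 6 colony mice were at 125 to 204 CPM and the 6 cross mice at 48.1 to 139 CPM. Granule neuron markers, 2 of 4 of which were higher in the cross, overlapped between the sets, with 579 to 894 CPM in the colony and 580 to 1085 CPM in the cross. All 5 cortical markers were lower in the cross (75.7 to 106.9 CPM in sum against 104.6 to 215 CPM), as were all 6 oligodendrocyte markers (1208 to 2897 CPM against 1947 to 4120 CPM), and their part in the difference of Lpl was not tested. Lpl was thus higher with amyloid in the 4-month experiment and lower in the cross than in the colony, and whether the 2 differences differ was not tested.

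Fabp5 was at 25.2 to 29.2 CPM in the colony mice of 3 months and at 22.1 to 44.1 CPM in the cross. In both cross groups the values fell into a low and a high set with a gap between: 5 of 16 mice were at 22.1 to 27.6 CPM and the other 11 at 32.2 to 44.1 CPM. All 6 cross mice on lane 5 were at 32.2 to 44.1 CPM, and the 6 on lane 6 spread over 22.1 to 43.8 CPM. The log2 fold change from the colony was 0.33 (standard error 0.10, edgeR adjusted p = 0.0107). Fabp5 has 1 processed copy in the annotation, which took 12 reads in all 46 mice together.

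Abcg1 was 52.2 to 61.02 CPM in the colony and 43.7 to 56.4 CPM in the cross, a log2 fold change of -0.20 (standard error 0.042, edgeR adjusted p = 3.49e-04). Abca1 had a log2 fold change of -0.052 (95% interval -0.19 to 0.090) and Apoe one of -0.12 (interval -0.26 to 0.022), which moved to -0.21 and passed with a correction for transcript length and GC content (adjusted p = 5.17e-04 in edgeR). Ch25h stood at 0.0815 to 0.725 CPM in the cross and at 0.0279 to 0.395 CPM in the colony, with at most 18 reads in a mouse. Its log2 fold change of 0.80 had an interval of 0.074 to 1.52 and did not pass the test (edgeR adjusted p = 0.0617), though it passed when 1 of 6 libraries was left out, most clearly Fmn2-/- replicate 2 (1.0, edgeR adjusted p = 0.0252). Markers of plaque-associated microglia summed to 31.1 to 114 CPM in the cross and to 23.3 to 34.7 CPM in the colony, and 5 of the 6 rose.

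Of the 38 further lipid transport genes, 33 were tested in this comparison, of which 12 were higher in the cross and 6 lower, beside the 49.4% of all genes. The largest differences were in Lipg, an endothelial lipase (1.65 against 0.533 CPM, log2 fold change 1.58, edgeR adjusted p = 1.03e-06), and Angptl4, an inhibitor of lipoprotein lipase (2.67 against 1.65 CPM, log2 fold change 0.69, edgeR adjusted p = 3.71e-04). Rxra, a partner of LXR, was higher by 0.53 on the log2 scale and Nr1h3, which encodes LXR alpha, by 0.42. Of the 6 further genes of LXR, its partners and targets, 4 were higher and 2 lower. Stard3, a sterol carrier of late endosomes, was higher by 0.50 without overlap of the mice.

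The 4-month wild types and the 3-month Fmn2+/+ mice were compared to describe how far the 10 genes differ between the 2 sets of tissue, the first bearing cortical markers. Tissue, experiment and age coincide here, and 74.7% of the 16661 genes tested were called. Of the 10 genes 9 were tested, and 7 were lower and 1 higher in the 4-month wild types. With a log2 fold change of at least 0.5 required, Abca1, Abcg1 and Soat1 lost their calls, and 45.1% of all genes were called.

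Lpl differed most. It was at 181, 165, 163, 179 and 204 CPM in the 5 Fmn2+/+ mice and at 18.5 CPM in the lowest, 21.8 at the median and 33.0 in the highest 4-month wild type, which is 7.52-fold lower (log2 fold change -2.91, standard error 0.13, edgeR adjusted p = 7.08e-11). Apoe was at 1398, 1447, 1178, 1506 and 1386 CPM in Fmn2+/+ mice and at 614 to 740 CPM in the wild types, 2.09-fold lower (log2 fold change -1.07, standard error 0.059, edgeR adjusted p = 6.60e-10). Lcat was 1.91-fold lower, at 13.3 to 17.6 CPM against 25.6 to 31.1 CPM (log2 fold change -0.94, edgeR adjusted p = 8.88e-08). The groups did not overlap for any of these genes.

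Lrp1 went the other way, with 551 to 652 CPM in the wild types and 262 to 295 CPM in Fmn2+/+ mice (log2 fold change 1.0, standard error 0.049, edgeR adjusted p = 1.72e-10). Lrp1 has the longest exon sequence of the 10 genes (17717 bases), and with a correction for length and GC content its log2 fold change was 0.44, still called. Apod, Abca1, Soat1 and Abcg1 were lower by smaller amounts, with log2 fold changes of -0.60, -0.33, -0.28 and -0.15. Under that correction Apod lost its call (-0.44, edgeR adjusted p = 0.0574), while Abcg1 moved to -0.40 and Soat1 to -0.13, both still called. Fabp5 did not pass the test (log2 fold change 0.099, interval -0.00044 to 0.20). Its groups did not overlap, with 27.9 to 32.0 CPM in the wild types and 26.3 to 27.7 CPM in Fmn2+/+ mice. With that correction Fabp5 passed (0.24, edgeR adjusted p = 1.55e-04), as it did with other size factors and in 3 fits with 1 mouse left out. Ch25h was too low to be tested.

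Among the 38 further genes, 33 were tested, 15 were higher in the 4-month wild types and 10 lower, beside 74.7% of all genes called. Lipg was at 9.41 CPM against 0.566 CPM (log2 fold change 3.93, edgeR adjusted p = 9.86e-11) and Abca7, a lipid pump related to Abca1, at 40.3 CPM against 8.61 CPM (log2 fold change 2.17, edgeR adjusted p = 6.65e-13). Cyp7b1, which breaks down 25-hydroxycholesterol, was lower, at 10.6 CPM against 39.7 CPM (log2 fold change -1.95, edgeR adjusted p = 3.20e-12). Fabp7 had a log2 fold change of -1.32 and Pltp, the phospholipid transfer protein, one of 0.99.

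**Figure D3:**
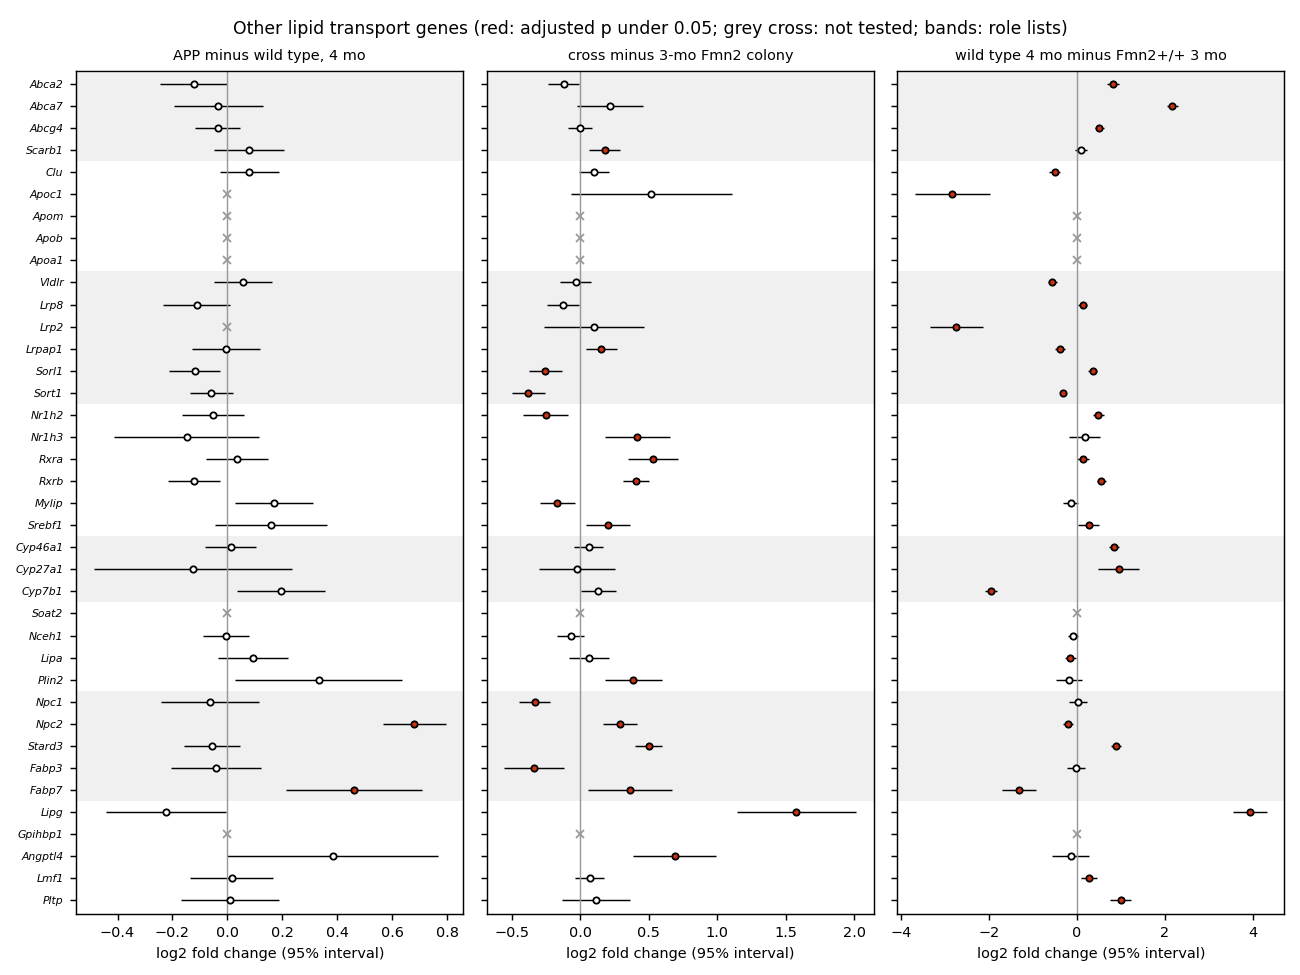
log2 fold change with 95% interval (horizontal axes) of the 38 further lipid transport genes, in bands by role, in 3 comparisons. Red points passed an adjusted p under 0.05 and grey crosses were not tested. In APP mice 2 of the 31 tested rose, beside 3.81% of all genes called. In the cross against the colony 18 of 33 were called, beside 49.4% of all genes. In the 4-month wild types against Fmn2+/+ mice 25 of 33 were called, beside 74.7% of all genes.

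The Fmn2 colony asked what loss of Fmn2 does at a young and at an older age. At 3 months none of the 9 genes tested passed between Fmn2-/- and Fmn2+/+ DG with edgeR, and none had an unadjusted p under 0.05. None was called by DESeq2, which called 0.457% of all genes. Of 16630 genes tested, 0.0301% were called at this age and 10.5% had an unadjusted p under 0.05. Apoe had the smallest p, with 1398, 1447, 1178, 1506 and 1386 CPM in Fmn2+/+ mice and 1707, 1666, 1541, 1306 and 1583 CPM in Fmn2-/- mice. The groups overlapped, and the log2 fold change was 0.17 (95% interval -0.014 to 0.35, edgeR adjusted p = 0.505). The intervals were narrow for Fabp5 (-0.12 to 0.11), Abcg1 (-0.13 to 0.11), Lrp1 (-0.066 to 0.16) and Soat1 (-0.11 to 0.17), and wide for Lpl (-0.38 to 0.23) and Apod (-0.57 to 0.61). Lpl was at 125 and 129 CPM in 2 of the 5 Fmn2-/- mice and at 183 to 214 CPM in the other 3, beside 163 to 204 CPM in Fmn2+/+ mice. All Fmn2+/+ mice and 1 Fmn2-/- mouse were on lane 5 and the other 4 on lane 6, and with lane in the fit the log2 fold change of Lpl was -0.51 (edgeR adjusted p = 0.253) and that of Apoe 0.31 (edgeR adjusted p = 0.276).

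At 8 months again none of the 9 genes tested passed, beside 1.13% of 14665 genes. That share was 22.7% without Fmn2+/+ replicate 2 and 0.0268% without Fmn2+/+ replicate 1. An unadjusted p under 0.05 was reached by 3 of the 9, Abca1, Apoe and Soat1, beside 23.3% of all genes. DESeq2 called none of them, beside 2.53% of all genes. Abca1 was at 39.0, 44.6 and 37.5 CPM in the 3 Fmn2+/+ mice and at 40.5, 53.2, 52.0, 49.4 and 51.7 CPM in the 5 Fmn2-/- mice (log2 fold change 0.31, interval 0.093 to 0.52, edgeR adjusted p = 0.112). Of the Fmn2-/- mice 4 lay above all Fmn2+/+ mice and 1 within their range. Soat1 was at 37.6, 44.3 and 34.0 CPM in Fmn2+/+ mice and at 42.6, 47.6, 51.7, 42.2 and 44.0 CPM in Fmn2-/- mice, with a log2 fold change of 0.26 (interval 0.042 to 0.47, edgeR adjusted p = 0.155), and 2 Fmn2-/- mice lay above all Fmn2+/+ mice. The 6 astrocyte markers, of which 1 rose, summed to 4878 to 5508 CPM in Fmn2-/- mice and to 4186 to 4591 CPM in Fmn2+/+ mice, without overlap, and their part in these differences was not tested.

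Apoe was at 1863, 1280 and 2154 CPM in Fmn2+/+ mice of 8 months and at 1387, 1405, 1353, 1374 and 1483 CPM in Fmn2-/- mice. The Fmn2+/+ mice lay on both sides of the Fmn2-/- mice, which were close together. The log2 fold change was -0.33 (interval -0.60 to -0.053, edgeR adjusted p = 0.155). With the length and GC correction it was -0.053, and that of Abca1 was 0.19 and that of Soat1 0.11. The calls also turned on 1 library: without Fmn2+/+ replicate 2, the shallowest library, Apoe (-0.51, edgeR adjusted p = 0.00131), Abca1 (0.38, adjusted p = 0.0185) and Soat1 (0.35, adjusted p = 0.0180) all passed, in a fit that called 22.7% of all genes. Fmn2+/+ replicate 3 had the highest Apoe and Apod of the colony (2154 and 329.7 CPM) together with the highest sum of fibroblast markers, 181 CPM against 44.1 and 85.3 CPM in the others.

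Whether the genotype difference changed with age was tested in 1 fit of the 18 colony mice, in which 3.73% of 17046 genes were called. None of the 10 genes was, and 2 had an unadjusted p under 0.05, beside 22.9% of all genes. Apoe came closest, with a difference of -0.51 on the log2 scale (interval -0.85 to -0.17, edgeR adjusted p = 0.0725), and DESeq2 called it (-0.49, DESeq2 adjusted p = 0.0290). Without Fmn2+/+ replicate 2 of 8 months edgeR called it too (-0.68, adjusted p = 0.00227), together with 16.2% of all genes, whereas with the length and GC correction the difference for Apoe was -0.13. The second was Abca1, at 0.38 (interval 0.072 to 0.68, edgeR adjusted p = 0.131). Of the further genes only Lrpap1, the chaperone of LRP1, was called, at -0.28 (edgeR adjusted p = 0.0284). With lane in the fit 0.00587% of all genes were called, none with a negative difference. Apoe was then at -0.60 (edgeR adjusted p = 0.148). The share was 0.123% with the length and GC correction and 0.0465% without Fmn2+/+ replicate 1 of 8 months.

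Between 3 and 8 months, averaged over genotypes, 12.4% of the genes were called but none of the 10. Of these 4 had an unadjusted p under 0.05, beside 26.9% of all genes. DESeq2 called none of the 10, beside 7.83% of all genes. Ch25h had a log2 fold change of 1.06 (interval 0.14 to 1.98, edgeR adjusted p = 0.126) on 1 to 15 reads per mouse. The others were small: Fabp5 0.11 (interval 0.019 to 0.19), Lrp1 -0.11 (-0.22 to -0.0056) and Abcg1 -0.12 (-0.21 to -0.020). Fabp7 (0.58, edgeR adjusted p = 0.0123) and Npc2 (0.24, edgeR adjusted p = 0.00292) rose with age among the further genes. With lane in the fit 0.00587% of all genes were called and none of them rose, so both calls were lost. Age and lane largely coincide, since the 3-month mice were on lanes 5 and 6 and 7 of the 8 mice of 8 months on lane 7.

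In the cross none of the 10 genes passed the edgeR test between the labelled groups, beside 1.57% of 16656 genes. DESeq2 called none of the 10, beside 2.31% of all genes. Only 1 had an unadjusted p under 0.05 with edgeR, beside 16.6% of all genes. That gene was Lrp1, at 233 CPM in the lowest, 304 at the median and 331 in the highest mouse labelled FMN2-/-_APP and at 229.9, 261 and 281 CPM in mice labelled FMN2 +/+ APP, a log2 fold change of 0.17 (interval 0.0055 to 0.33, edgeR adjusted p = 0.285). Apod had the largest difference, -0.63 (interval -1.28 to 0.027, edgeR adjusted p = 0.324), with 54.4, 80.5 and 219 CPM against 69.3, 187 and 268 CPM. The intervals of Apoe (-0.061 to 0.32), Abca1 (-0.24 to 0.13), Abcg1 (-0.053 to 0.18) and Lpl (-0.62 to 0.19) included 0. None of the 33 further genes tested was called in the cross, and none of those tested at 3 or at 8 months in the colony.

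Mice of 1 group differed from each other to a degree that depended on the gene. The median over groups of the coefficient of variation was lowest for Fabp5 (5.61%), Abcg1 (5.90%) and Lrp1 (6.64%) and highest for Lpl (22.6%), Apod (34.6%) and Ch25h (58.5%). For Ch25h the low read numbers add counting error to that spread.

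The deviations of the 46 mice from their group means, on a log2 scale, describe which genes moved together within groups. Mice share sequencing lanes, so the correlations are given as a description. Abca1 and Soat1 had the highest Pearson r of the 45 pairs, 0.60. Apod, Lcat and Ch25h formed a set with r of 0.59 for Apod and Ch25h, 0.58 for Lcat and Ch25h and 0.53 for Apod and Lcat. Ch25h had only 1 to 18 reads per mouse in the DG, so counting error enters each r that involves it. The lowest values were -0.46 for Abca1 and Fabp5 and -0.44 for Fabp5 and Lrp1. Apoe had r of -0.26 with Abca1 and -0.29 with Abcg1.

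**Figure D4:**
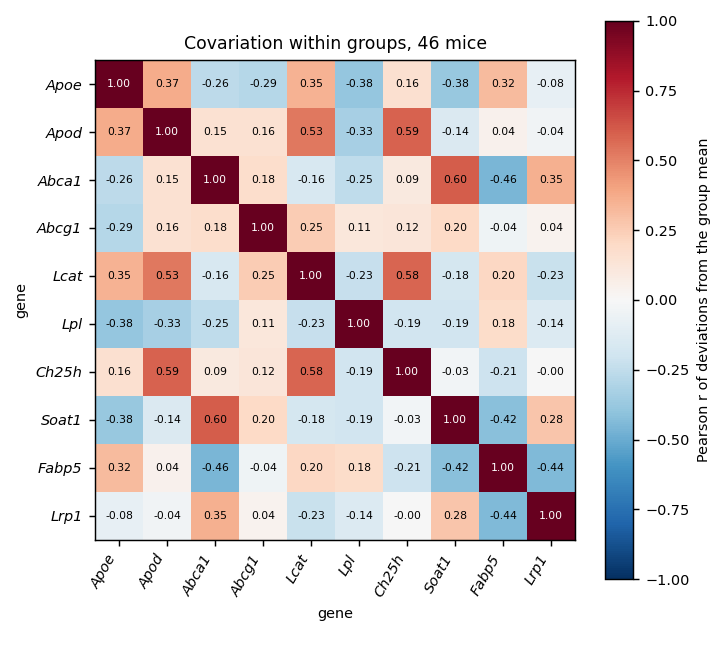
Pearson r (colour and number) between the deviations of 2 genes from the group mean of log2 CPM over 46 mice. The set of Apod, Lcat and Ch25h (r of 0.53 to 0.59) and the pair of Abca1 and Soat1 (0.60) stand out from the other pairs. Values of Ch25h rest on few reads per mouse.

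Apod varied with markers of vessels and meninges. Over the 46 mice its deviations had an r of 0.78 with the summed endothelial markers and of 0.75 with those of fibroblasts of vessels and meninges (Dcn, Lum, Col1a1, Col1a2, Slc6a13). The genes most like it were Vtn (0.93), which pericytes express, Enpp1 (0.93) and Ccn2 (0.92). Lcat had an r of 0.68 and Ch25h of 0.62 with the same fibroblast markers, and among the genes most like Ch25h were H2-K1 (0.75) and Lyz2 (0.74), genes of antigen presentation and myeloid cells. Lpl was most like Nptxr (0.74), Rab3ip (0.71) and Wsb2 (0.70), and its r with any of the 9 marker lists lay between -0.29 and -0.0030.

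**Figure D5:**
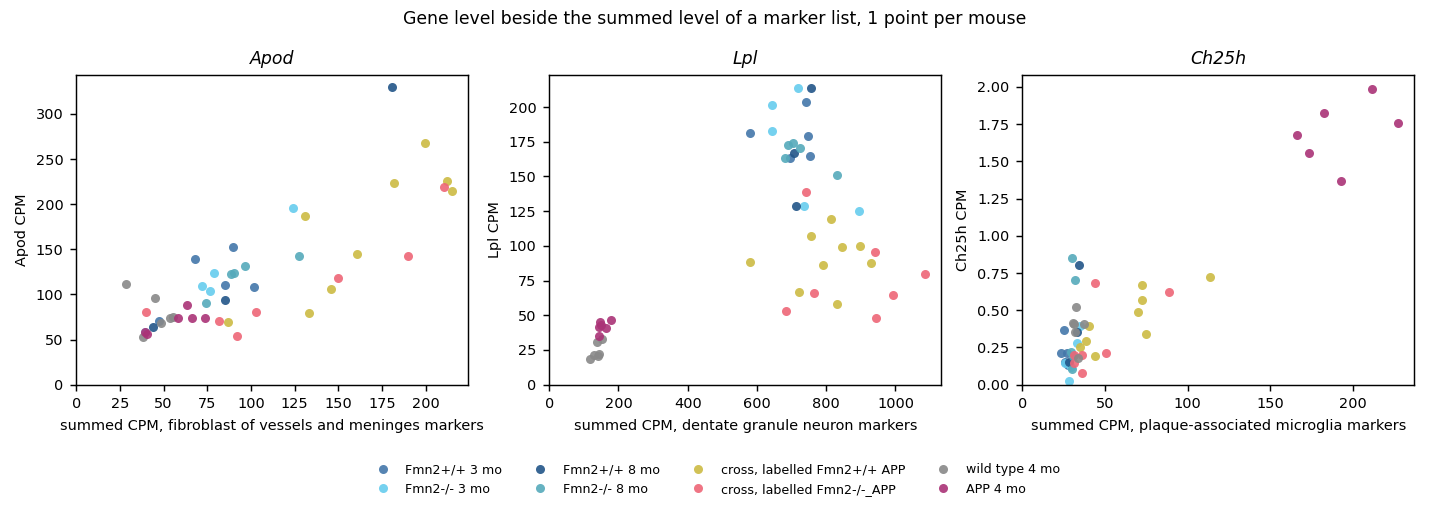
Level in CPM of Apod, Lpl and Ch25h (vertical axes) against the summed CPM of a marker list (horizontal axes), 1 point per mouse, coloured by group. Apod is higher in mice with more fibroblast markers, Lpl differs between cross and colony mice at like sums of granule neuron markers, and Ch25h is high in the 6 APP mice of 4 months, whose plaque-associated microglia markers sum to 166 to 227 CPM.

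Apoe was most like Dmac2 (0.79), Rplp1 (0.78) and Khk (0.77). Rplp1 encodes a ribosomal protein and Khk ketohexokinase. Abca1 was most like Cpne3 (0.81), Qk (0.80) and Erbin (0.77), and among the genes most like Lrp1 were Ubr4 (0.80) and Hectd4 (0.78). Fabp5 was most like Sirt3 (0.80), Manbal (0.76) and Cox8a (0.74), Soat1 most like Marf1 (0.65) and Abcg1 most like Mtus2 (0.64). Lcat was most like Ctdnep1 at 0.71.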

How the data were processed

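The authors isolated RNA from whole tissue with TRIzol, prepared libraries with the TruSeq RNA v2 kit, used STAR for alignment to mm10 and HTSeq for counting, and deposited raw counts per Ensembl gene for each library. The annotation release and the strand setting are not given in the sources used here. Symbols, positions and exon lengths came from GENCODE M21. From these counts, levels were computed as CPM with TMM factors over all 46 mice, and comparisons were tested with edgeR 4.0.16 (quasi-likelihood test in R 4.3.3, filterByExpr, Benjamini-Hochberg over all genes tested, called at an adjusted p under 0.05). DESeq2 1.42.0 was an alternative, beside other size factors, no filter, lane, a length and GC correction (mgcv 1.9.3), a fold minimum, a replicate block and each mouse left out. All 10 genes are named. Of 38 further lipid genes those called were named, up to the 5 with the largest fold at a mean of at least 1 CPM. For likeness the 3 genes with the highest r of log2 CPM deviations over 46 mice were named, at a mean of at least 5 CPM. A few genes of these lists are not reported here. Members and lists were chosen with earlier results of these data known. P-values set the difference between groups against the spread between mice. Where lane, experiment or tissue coincides with the groups, they cannot separate it from the label. Counts were simulated from the fitted model for Fmn2 at 3 months and for the 4-month experiment only. They held no effect of lane or of transcript length and GC content. The scripts recovered changes in them, and how often is not reported here.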

Additional observations from a re-analysis of the deposited data

Results flagged for a closer look

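In 70 pairs of a gene and a group of 4 to 10 mice, the highest or lowest mouse was checked for a gap to the next mouse that is large against the range of its group, and 5 mice were far from the rest of their group. Chance alone marks about 1 in 20 groups. Apoe was at 860 CPM in replicate 8 of the cross mice labelled FMN2 +/+ APP, below the next mouse at 1221 CPM. Abcg1 was at 57.4 CPM in Fmn2-/- replicate 3 of 8 months, where the next mouse was at 50.3 CPM. Soat1 was at 45.7 CPM in Fmn2-/- replicate 2 of 3 months, above the next at 38.5 CPM. Fabp5 was at 38.1 CPM in APP replicate 5 of 4 months, above the next at 31.6 CPM. Lrp1 was at 652 CPM in wild-type replicate 5 of 4 months, above the next at 584 CPM.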

How the results depend on the processing

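No called gene changed sign under any setting run, and of the single-gene results under other settings 1717 kept their side of the threshold, 25 newly passed and 7 no longer passed. At 8 months 1 member was called with no filter on low counts, beside 3.93% of all genes. With 1 mouse left out 0 to 3 were called, beside 0.0268% to 22.7% of all genes. For age by genotype DESeq2 called 1 member, beside 4.57% of all genes. Leaving out 1 mouse gave 0 to 1, beside 0.0465% to 16.2% of all genes. The 1 was Apoe without Fmn2+/+ replicate 2 of 8 months or Fmn2-/- replicate 5 of 3 months. For age the length and GC correction called 1 (Soat1), beside 12.7% of all genes. Leaving out 1 mouse gave 0 to 1, beside 8.29% to 15.1% of all genes. The 1 was Lrp1, Apoe or Abcg1 without Fmn2+/+ replicate 1, Fmn2+/+ replicate 2 or Fmn2-/- replicate 3 of 8 months. With a log2 fold of at least 0.5 required, 2 of 3 members remained in the 4-month experiment (Apoe lost its call), 1 for the cross against the colony and 5 for the 4-month wild types against Fmn2+/+ mice. The shares of all genes called were then 2.34%, 16.5% and 45.1%, beside 3.81%, 49.4% and 74.7% without that minimum. Causes were not tested. Apart from leaving out each mouse in turn, the number of all genes called depended on the setting, from 2 to 142 at 3 months, 3 to 1124 at 8 months, 1 to 1472 for age by genotype, 1 to 2520 for age, 85 to 756 in the cross, 392 to 829 in the 4-month experiment, 2905 to 9342 for the cross against the colony and 7508 to 14266 for the last comparison. With 1 mouse left out it was 3 to 54 at 3 months (54 without Fmn2-/- replicate 1), 4 to 3417 at 8 months and 8 to 2846 for age by genotype (lowest without Fmn2+/+ replicate 1 of 8 months, highest without replicate 2), and 1454 to 2548 for age. Correlations of deviations cannot show whether replicate numbers pair the mice. Same-numbered mice had a mean r of -0.0039 at 3 months, -0.041 at 8 months, 0.11 in the cross and -0.0059 in the 4-month experiment. For mice of other numbers it was 0.00073, 0.011, -0.013 and 0.0021. With the replicate block 0, 0, 0 and 3 members were called, beside 0.0122%, 0.0277%, 1.58% and 3.2% of all genes. Fmn2-/- replicates 2 and 3 of 8 months were closer to each other than the mice of any other pair (chi-square over its degrees of freedom 1.62, against 3.502 for the next pair). They were counted as 2 mice. With both summed 0 members were called, beside 0.0337% of all genes at 8 months, 1.33% for age by genotype and 10.7% for age. Mice above 1000 CPM of choroid plexus markers, or wild types above 3000 CPM of oligodendrocyte markers, were left out as alternatives chosen after seeing the data. Depth limits Ch25h, with 1 to 18 reads per mouse in the DG.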
